A study of Mus musculus with 24 samples.

Results

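Eph receptors and their ephrin ligands were described in sorted mouse astrocytes of 4 brain regions. The set held 10 genes of the 24394 in the deposited table, namely the receptor genes Epha4, Epha5, Epha7, Ephb1 and Ephb2 and the ligand genes Efna2, Efna5, Efnb1, Efnb2 and Efnb3. They were taken by gene name from all libraries, and the list was drawn up with earlier results of these data known. All 10 had a row in the table, although Ephb2 stayed below the limit for testing (10 normalized reads or more in 3 or more libraries) in every comparison.

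The 24 libraries were bulk RNA-seq of astrocytes isolated by fluorescence-activated cell sorting, with 3 libraries in each of 8 groups. Olfactory bulb, hippocampus, cortex and thalamus were each taken from Nfix conditional knockout mice, here KO, and from control mice, here WT. The protein NFIX is a DNA-binding transcription factor and one of the nuclear factor I (NFI) proteins. The Cre driver, the floxed exons, the reporter or antibody used in the sort, and the age, sex and strain of the mice are not stated in the labels. Nothing in the labels ties the 3 libraries of a group to different animals. The p-values therefore reflect how far these libraries spread, and that spread may be technical. Whether the 4 regions of a genotype came from the same mice is not stated either.

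Eph receptors are receptor tyrosine kinases, and ephrins are ligands held on the surface of the neighbouring cell, so that signalling needs contact between cells. EphA receptors bind mainly ephrin-A ligands, which are fixed to the membrane by a lipid anchor, and EphB receptors bind mainly ephrin-B ligands, which cross the membrane and signal back into their own cell. The family is known for repelling growing axons and ordering topographic maps, and on astrocytes for contact with synapses and vessels.

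The promoter windows of the 3 genes on which the results below turn are shown first, because NFI proteins bind the core motif TTGGC, read as GCCAA on the opposite strand. Each window runs from 250 bases before to 50 bases after the RefSeq gene start on GRCm38.p6, is written 5′ to 3′ in the direction of the gene, and has the core motif in capitals. Epha4 lies on the minus strand at chr1:77515039-77515338, Efna5 on the minus strand at chr17:62881268-62881567 and Efnb2 on the minus strand at chr8:8661193-8661492.
Epha4: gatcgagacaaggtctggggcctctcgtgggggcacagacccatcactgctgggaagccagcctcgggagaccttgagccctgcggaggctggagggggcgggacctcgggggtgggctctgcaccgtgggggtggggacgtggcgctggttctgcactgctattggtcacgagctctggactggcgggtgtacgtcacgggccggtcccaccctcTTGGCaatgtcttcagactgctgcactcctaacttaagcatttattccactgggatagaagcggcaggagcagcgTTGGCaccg
Efna5: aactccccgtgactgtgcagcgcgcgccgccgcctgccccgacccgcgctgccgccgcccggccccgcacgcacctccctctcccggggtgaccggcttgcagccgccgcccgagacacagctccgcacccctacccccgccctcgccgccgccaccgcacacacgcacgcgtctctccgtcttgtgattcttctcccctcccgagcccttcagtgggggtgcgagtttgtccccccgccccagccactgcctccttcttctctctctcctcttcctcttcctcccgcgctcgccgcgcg
Efnb2: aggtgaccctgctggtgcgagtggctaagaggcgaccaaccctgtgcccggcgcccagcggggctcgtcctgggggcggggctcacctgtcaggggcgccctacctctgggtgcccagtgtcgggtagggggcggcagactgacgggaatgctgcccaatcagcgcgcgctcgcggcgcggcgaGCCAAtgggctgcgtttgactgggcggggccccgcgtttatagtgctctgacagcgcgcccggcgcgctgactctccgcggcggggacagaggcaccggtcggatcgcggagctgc
Epha4 had the core motif at positions -34 and 42 from the start and Efnb2 had it once, at position -66, while the Efna5 window held none. Of the 9 genes of the set with a window, 5 held the motif on either strand and 4 did not, and 46.7% of all 32851 RefSeq windows of the same length held it. The full NFI palindrome, both cores in 1 site, was in none of the 9 genes' windows and in 0.0365% of all windows. These matches describe letters and not binding, which was not measured. Efnb3 had no entry.

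On GRCm38, the receptor genes lie at chr1:77367185-77515088 (Epha4, minus strand, 18 merged exons), chr5:84054761-84417382 (Epha5, minus, 19), chr4:28813131-28967499 (Epha7, plus, 19), chr9:101922128-102354693 (Ephb1, minus, 18) and chr4:136647539-136835988 (Ephb2, minus, 16). The ligand genes lie at chr10:80179482-80190010 (Efna2, plus, 4 merged exons), chr17:62604184-62881317 (Efna5, minus, 5), chrX:99136130-99148991 (Efnb1, plus, 6), chr8:8617434-8661242 (Efnb2, minus, 5) and chr11:69554092-69560205 (Efnb3, minus, 5). Each value counts reads over a whole gene, so exons and isoforms were not told apart.

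Libraries held 2522171 to 25667980 reads, and levels are given as normalized reads, meaning reads scaled by 1 size factor per library. A count of 0 allows up to 3 reads, worth 1.18 to 3.90 normalized reads in 22 libraries, 11.3 in cortex WT replicate 3 and 29.7 in thalamus KO replicate 3. These limits cover counting error only, since reads with no molecular identifier may be copies of 1 molecule. Those last 2 libraries stood apart, with 3871 and 2220 detected genes against 7509 to 11984 in the others. Summed astrocyte markers (10 genes) took 17911 and 10944 CPM (reads scaled to a common library total) in them, against 30934 to 87998 CPM elsewhere, and the oligodendrocyte sum (10 genes) was 51044 and 76021 CPM. Aqp4, the astrocyte water channel, stood at 31.6 CPM in cortex WT replicate 3 and at 0 in thalamus KO replicate 3. Hippocampus WT replicates 2 and 3 shared 93.4% of the genes detected in either, where the next pair of one group shared 76.1%, and results are also given with this pair averaged where it matters.

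Nfix, the targeted gene, stood at 3440, 4521 and 6119 normalized reads in the olfactory bulb libraries labelled KO, against 2360, 2431 and 2552 in those labelled WT. The hippocampus held 7904, 5410 and 6877 in KO and 5117, 4519 and 3900 in WT. The cortex held 5713, 4230 and 5136 in KO and 3320, 3635 and 4402 in WT, and the thalamus 6131, 11701 and 3009 in KO and 2941, 3641 and 2829 in WT. Nfix was thus not lower in the libraries labelled KO, and the log2 differences of 0.90, 0.57, 0.41 and 0.94 in this order did not pass in limma (adjusted p from 0.854 to 1.00). Under upper-quartile scaling the cortex difference turned to -1.53 (SE 2.43, limma, adjusted p = 0.920), and under TMM scaling it was 0.74 (SE 0.81). Because reads were summed over the gene, a loss limited to some exons would not be visible. The values go against the labels without settling them, and KO and WT stand below for the libraries so labelled.

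Set per length of merged exon, Efna5 had the highest mean of the family over the 24 libraries, at 146 normalized reads per kb. It was followed by Epha4 at 92.4, Ephb1 at 70.8, Efnb3 at 56.9, Efnb2 at 55.2 and Epha5 at 39.3 normalized reads per kb. Efna2 at 15.7, Efnb1 at 9.65, Epha7 at 9.01 and Ephb2 at 2.38 came lower. Means hid a wide spread between libraries. Epha4 and Epha5 were above 0 in 22 and 21 of 24 libraries, Ephb1 and Efnb3 in 19 each and Efna5 in 18, whereas Efnb2 was above 0 in 13, Efna2 in 10, Efnb1 in 8 and Ephb2 in 3. For 3 genes a single library held most of the summed normalized reads, with 92.7% of Ephb2 in olfactory bulb KO replicate 1, 82.6% of Efnb1 in olfactory bulb KO replicate 2 and 70.3% of Efnb3 in cortex WT replicate 3.

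**Figure D1:**
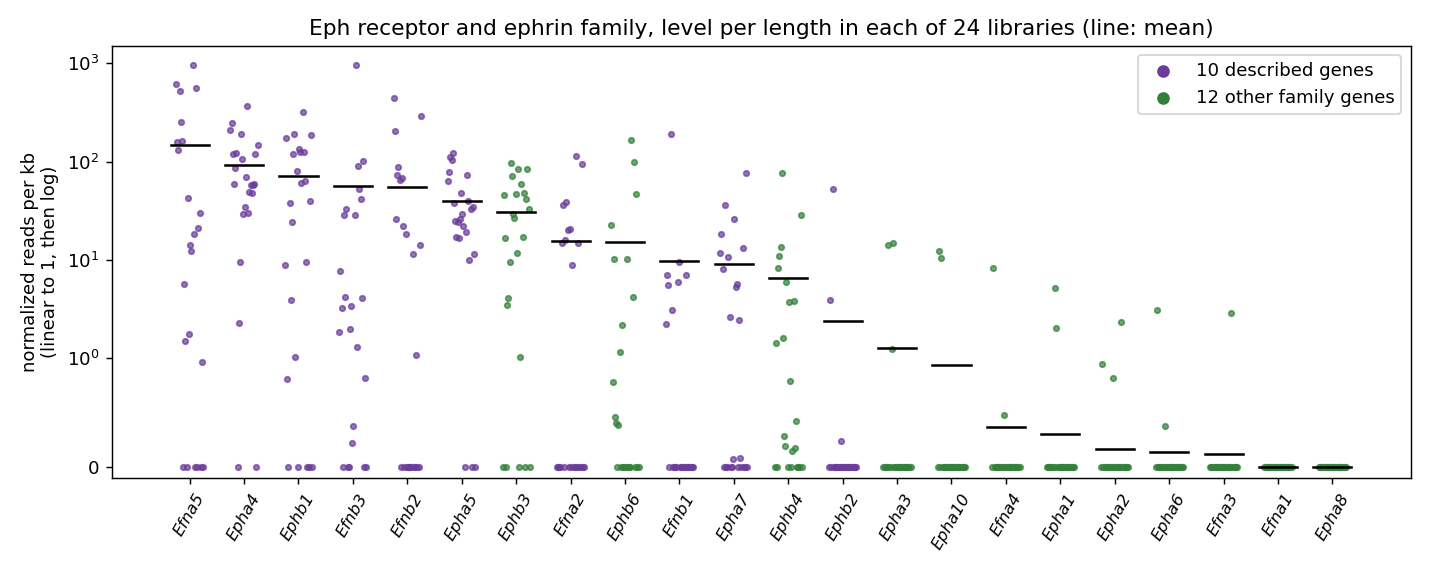
Level of each Eph receptor and ephrin gene, in normalized reads per kb of merged exon (y axis, linear to 1 and then log), with 1 point for each of 24 libraries and a line at the mean. The 10 described genes are in purple and the 12 other family genes in green, ordered by mean from Efna5 at 146 to Efna1 and Epha8 at 0.

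Among the 12 other family genes, Ephb3, another ephrin-B receptor, had the highest mean (202 normalized reads, 30.5 per kb, above 0 in 19 libraries). Ephb6, a receptor whose kinase domain is inactive, averaged 57.3 normalized reads, Ephb4, known as the venous receptor for ephrin-B2, 30.2, and Epha3 11.0. Efna1 and Epha8 were at 0 in all 24 libraries. Efna3, named after its values were seen because ephrin-A3 is the astrocytic ligand of EphA4 described in mouse hippocampus, was above 0 in 1 of 24 libraries, at 6.95 normalized reads in thalamus WT replicate 1. The number of the 10 described genes above 0 in a library ran from 5 to 9 in the olfactory bulb (median 8), from 3 to 8 in the hippocampus (median 7), from 5 to 7 in the cortex (median 6.5) and from 2 to 6 in the thalamus (median 4.5).

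**Figure D2:**
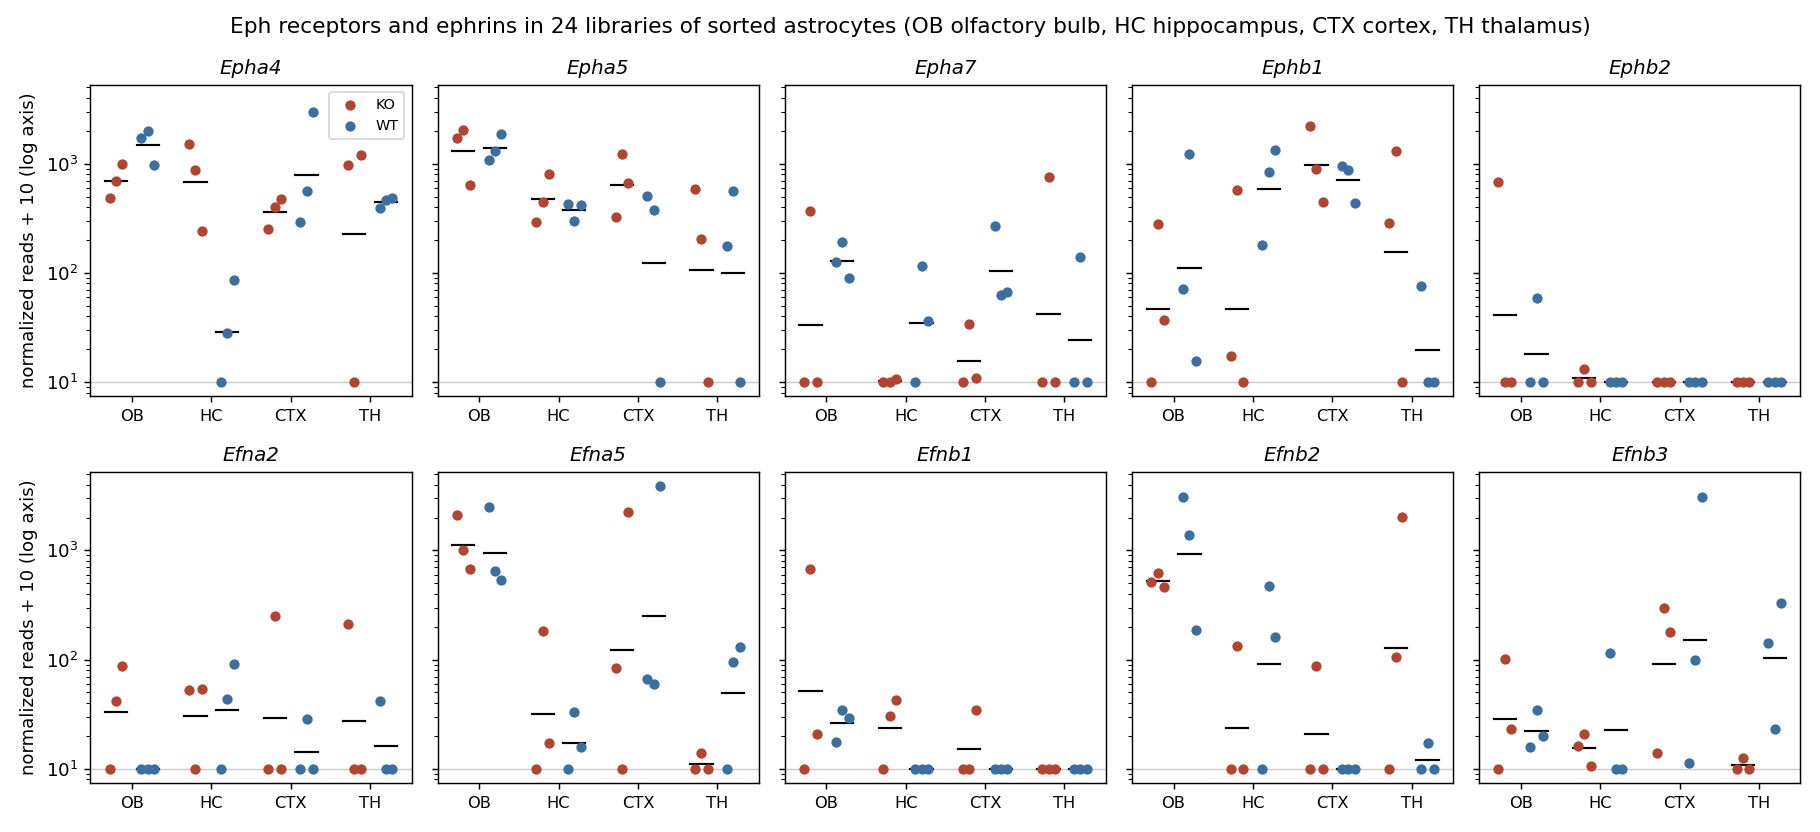
Normalized reads plus 10 (log axis) of the 10 genes in each library of the olfactory bulb (OB), hippocampus (HC), cortex (CTX) and thalamus (TH), with KO in red left of WT in blue and a bar at the mean of the log values of 3 libraries. Points on the grey line at 10 are libraries at 0, and Efna5 and Efnb2 lie above it in all 6 olfactory bulb libraries.

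Across the regions, with both genotypes together, the ligand genes Efna5 and Efnb2 were the 2 of 9 tested genes of the set that passed (limma F test of region with genotype as a second term, adjusted p under 0.05), and 1.43% of all 12477 tested genes were called in this comparison. Both were highest in the olfactory bulb. The log2 difference between the highest and lowest region was 5.47 for Efna5 (adjusted p = 0.00818) and 5.60 for Efnb2 (adjusted p = 0.0258). At an unadjusted p under 0.05 there were 4 of the 9, which added Ephb1 and Epha5, against 10.3% of all tested genes. The median range over the 9 genes was 2.85, against 1.64 over all tested genes. Log2 differences here and below are of log2(normalized reads + 10), which understates the change of low genes.

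Efna5 encodes ephrin-A5, a repellent ligand for EphA receptors that orders retinal, olfactory and thalamocortical maps. In the bulb it stood at 2083, 1006 and 660 normalized reads in KO and at 2478, 633 and 526 in WT. The hippocampus held 0, 172 and 7.11 in KO and 0, 22.9 and 6.00 in WT. All 6 bulb libraries thus lay above all 6 hippocampus libraries. The thalamus held 0, 3.90 and 0 in KO and 0, 84.7 and 122 in WT, again below every bulb library. The cortex had both kinds of library, with 73.6, 0 and 2236 in KO and 56.9, 49.8 and 3896 in WT. The 3896 belongs to cortex WT replicate 3, where it rests on 1030 reads, and the 2236 to cortex KO replicate 3.

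The difference for Efna5 was 5.47 (SE 1.27) for the olfactory bulb minus the hippocampus and 5.45 (SE 1.27) for the olfactory bulb minus the thalamus, with adjusted p of 0.0109 and 0.00852 in limma. Of all tested genes, 0.697% and 1.07% were called higher in the bulb in these contrasts, and 1.11% and 1.33% had all 6 bulb libraries above all 6 of the other region. The olfactory bulb minus the cortex gave 2.56 (SE 1.27, adjusted p = 0.594), and the groups overlapped. Efna5 was called in each of 24 repeats that left out 1 library, with adjusted p from 0.00362 to 0.0292, and at 0.00409 without cortex WT replicate 3 and thalamus KO replicate 3. Within one genotype the F test did not pass, at adjusted p = 0.376 over the 12 KO libraries and 0.458 over the 12 WT libraries. By group means, cortex WT came first (1334 ± 2218, SD, n = 3), before olfactory bulb KO (1250 ± 742), olfactory bulb WT (1212 ± 1097) and cortex KO (770 ± 1270), and every pair of neighbours in the order of the 8 groups overlapped.

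Efnb2 encodes ephrin-B2, a transmembrane ligand of EphB receptors and of EphA4 that is known as a marker of arterial endothelium. Bulb libraries held 499, 608 and 448 normalized reads in KO and 3046, 1385 and 176 in WT. The cortex held 0, 78.1 and 0 in KO and 0 in all 3 WT libraries. Each bulb library was therefore above each cortex library. Hippocampus libraries held 0, 124 and 0 in KO and 0, 462 and 150 in WT. Thalamus libraries held 0, 96.1 and 2009 in KO and 0, 7.40 and 0 in WT, and the 2009 is thalamus KO replicate 3, from 203 reads.

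The difference for Efnb2 was 5.60 (SE 1.27) for the olfactory bulb minus the cortex (limma, adjusted p = 0.00788), where 0.938% of all tested genes were called higher in the bulb and 1.21% did not overlap in that direction. It was 3.91 (adjusted p = 0.177) against the hippocampus and 4.15 (adjusted p = 0.0896) against the thalamus, both with overlap. The call across regions was lost without olfactory bulb WT replicate 1 (adjusted p = 0.121), without olfactory bulb WT replicate 2 (0.101), without olfactory bulb KO replicate 2 (0.0570), with a pseudocount of 100 (0.0653) and with no filter on low values (0.115), where Efna5 was still called (0.0443). Without cortex WT replicate 3 and thalamus KO replicate 3 its adjusted p was 0.00417. The endothelial marker sum (10 genes) was 18.9 to 279 CPM in the bulb and 1.76 to 1004 CPM in the other regions. The regions thus overlapped in it. In bulb WT replicates 1, 2 and 3 this sum was 279, 275 and 45.3 CPM, beside 3046, 1385 and 176 normalized reads of Efnb2. In bulb KO it was 18.9, 82.2 and 71.2 CPM, beside 499, 608 and 448 normalized reads. The part of endothelial cells in the level of Efnb2 was not tested.

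**Figure D3:**
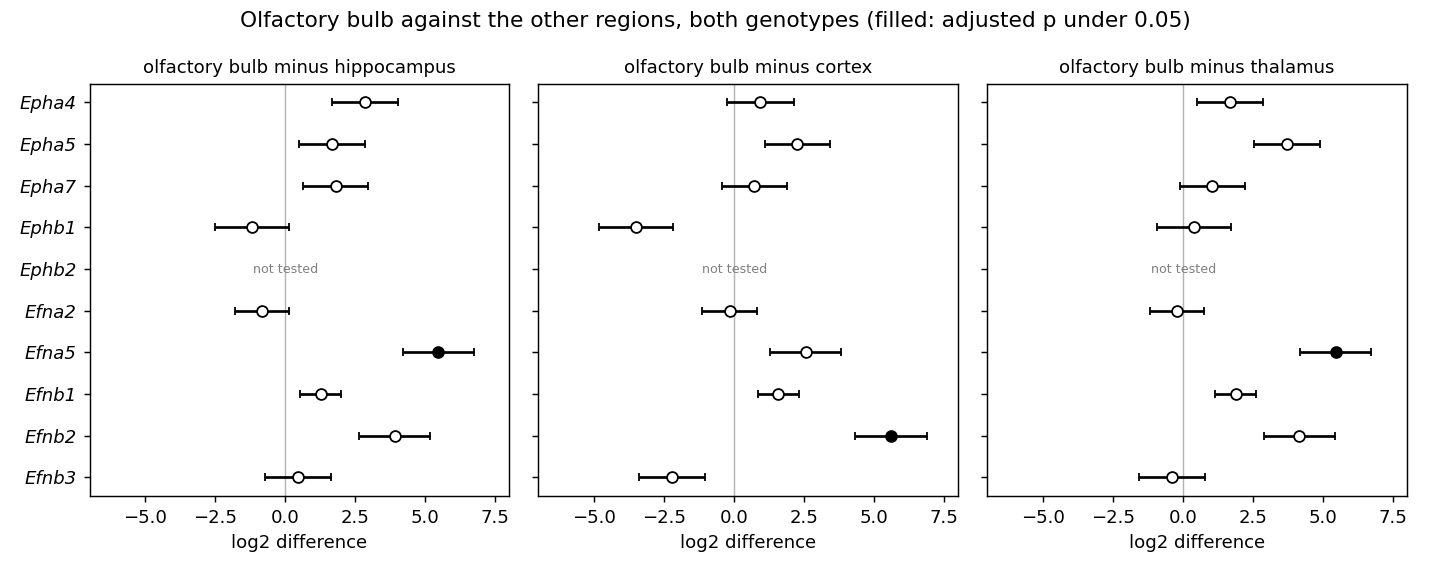
Log2 difference of the olfactory bulb minus each other region for the 10 genes, over both genotypes, as point and standard error (x axis, log2 of normalized reads + 10). Filled points passed at an adjusted p under 0.05, which were Efna5 against the hippocampus and thalamus and Efnb2 against the cortex, and Ephb2 was not tested.

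Markers of other cell types, and of astrocytes, moved with the bulb. The ensheathing glia sum (7 genes) was 5929 to 11610 CPM in the 6 bulb libraries and 538 to 3344 CPM in the other 18, with no overlap, and 4 of the 7 genes (Npy, Frzb, Fabp7 and Apod) lay above all other libraries. Frzb, for one, had 82.1 to 330 CPM in the bulb and at most 4.41 CPM elsewhere, with 14 of 18 libraries at 0. The neuroblast sum (8 genes) was 24.1 to 242 CPM in the bulb (median 66.6) and 0 to 124 CPM elsewhere (median 0.361). Of its 8 markers 1 lay apart, Sp8, and the defining marker Dcx was 0 to 112 CPM in the bulb and 0 to 48.4 CPM elsewhere. The astrocyte sum was 34544 to 45995 CPM in the bulb and 49355 to 87998 CPM in the hippocampus, without overlap. It overlapped between the bulb and the thalamus, and of the cortex libraries cortex WT replicate 3 alone was not above every bulb library. The fibroblast sum (6 genes) was 5.33 to 155 CPM in the bulb and 385 to 1711 CPM in the thalamus, also without overlap. The choroid and ependymal sum (6 genes) was 0 to 106 CPM in the bulb and 144 to 94170 CPM in the thalamus, again without overlap. The part of these cells in the levels of Efna5 and Efnb2 was not tested. In these bulk libraries, more cells of a type and more RNA per cell cannot be told apart.

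Epha5 encodes a receptor for ephrin-A ligands with a role in axon mapping, and it was above 0 in all 6 bulb libraries. Its bulb libraries held 1715, 2039 and 628 normalized reads in KO and 1064, 1310 and 1874 in WT. The thalamus held 582, 193 and 0 in KO and 167, 554 and 0 in WT, so every bulb library lay above every thalamus library, as for 1.33% of all tested genes. The difference was 3.71 (SE 1.17) and missed the threshold (limma, adjusted p = 0.105). The hippocampus, with 281, 439 and 798 in KO and 416, 288 and 410 in WT, and the cortex, with 318, 1210 and 657 in KO and 494, 369 and 0 in WT, lay between and overlapped the bulb. The bulb held 54.6% of the summed normalized reads of Epha5, against 67.8% for Efnb2 and 52.3% for Efna5. Its share was larger for Ephb2 (99.6%) and Efnb1 (90.3%), each mostly from 1 library. For the rest of the set it ran from 3.34% (Efnb3) to 38.0% (Epha4).

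Ephb1, a receptor for ephrin-B ligands that steers retinal axons at the optic chiasm, had its highest regional mean in the cortex and not in the bulb. Cortex libraries held 2226, 880 and 440 normalized reads in KO and 934, 868 and 427 in WT. The thalamus held 278, 1298 and 0 in KO and 66.6, 0 and 0 in WT. The bulb held 0, 268 and 27.2 in KO and 61.7, 1218 and 5.66 in WT, overlapping the cortex through WT replicate 2. The olfactory bulb minus the cortex gave -3.52 (limma, adjusted p = 0.303) and the cortex minus the thalamus 3.90 (adjusted p = 0.382). Exons of Ephb1 share bases with the opposite-strand long noncoding gene Gm26846, which has no row in the table, and whether counting used strand is not stated in the labels.

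The other 5 tested genes of the set did not pass across regions (limma, adjusted p from 0.536 to 0.948). Epha4, the receptor that binds ligands of both classes, had a regional median of 977 normalized reads in the bulb, 155 in the hippocampus, 428 in the cortex and 466 in the thalamus. Within the 12 WT libraries its F test gave an adjusted p of 0.282, and it became the only gene of the set called there, at 0.0318, when cortex WT replicate 3 was left out. In that WT comparison limma called 0 of 8 tested genes of the set and 0.252% of all genes, with 4 of the 8 and 6.79% of all genes at an unadjusted p under 0.05. Among the 12 KO libraries it called 0 of 9 and 0.0558% of all genes, with 2 of the 9 and 7.04% of all genes at an unadjusted p under 0.05.

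Between the libraries labelled KO and WT, no gene of the set passed in any region. Limma called 0 of 8 tested genes in the olfactory bulb, 0 of 5 in the hippocampus, 0 of 6 in the cortex, 0 of 4 in the thalamus and 0 of 9 in the average over regions. Over all genes it called 0% in 4 of these comparisons and 0.0109% in the hippocampus, lower in KO. At an unadjusted p under 0.05 there were 2 of 5 genes of the set in the hippocampus, where 6.27% of all genes reached it, and 0 in the other comparisons, where 4.01%, 2.44%, 3.82% and 4.86% of all genes did. The hippocampus p-values count WT replicates 2 and 3 as separate libraries. Over all genes, log2 differences had a median standard error of 1.49 (olfactory bulb), 1.41 (hippocampus), 2.12 (cortex), 2.31 (thalamus) and 0.81 (average), so differences of a few log2 units were not detectable at this spread. EdgeR's quasi-likelihood test on the recovered reads also called 0 genes of the set in all 5 comparisons. Of all 8376 genes tested in the cortex it called 6. In the thalamus Epha4 and Epha5 were the only genes of the set that edgeR and DESeq2 tested. DESeq2 called 1 gene of the set higher in KO in the hippocampus, where it called 0.683% of the 8634 genes with an adjusted p higher in KO. It called 2 of the set higher in KO in the average, where it called 3.78% of 11323.

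**Figure D4:**
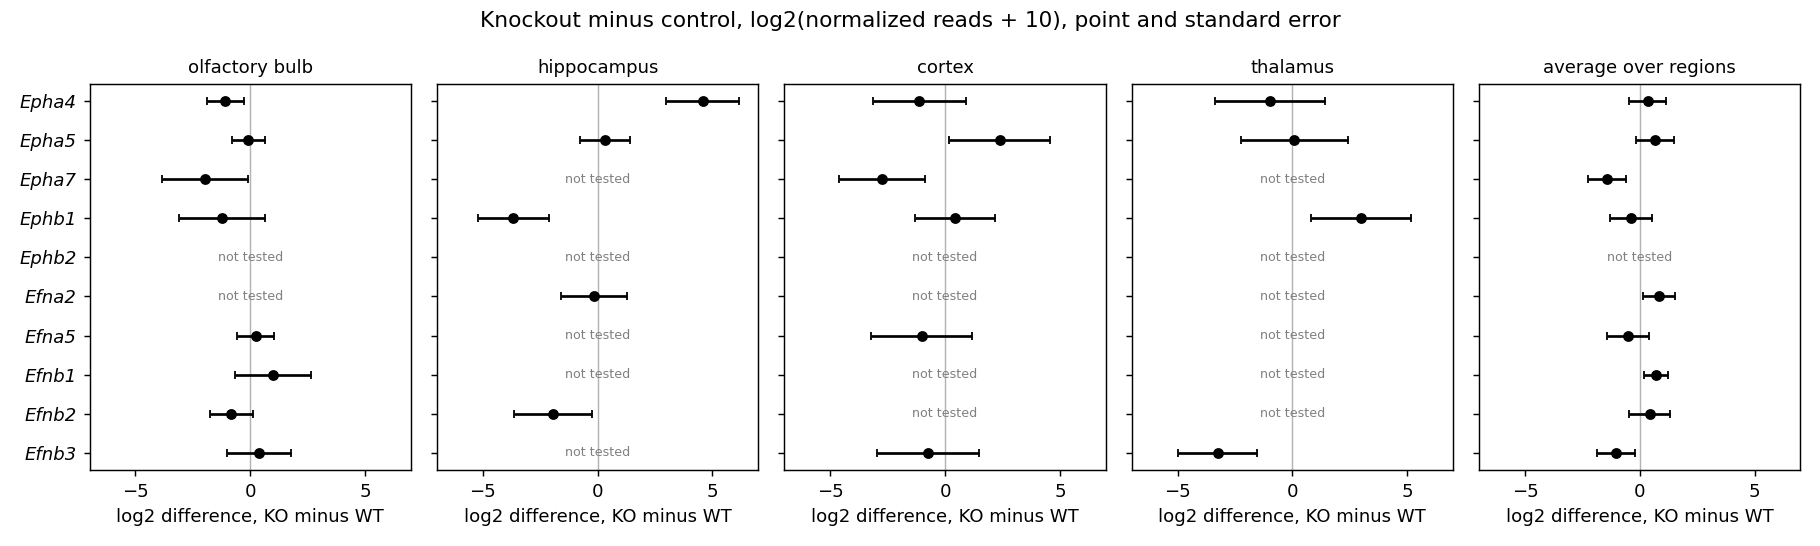
Log2 difference of KO minus WT for the 10 genes in each region and in the average over regions, as point and standard error (x axis, log2 of normalized reads + 10). None passed at an adjusted p under 0.05, and Epha4 in the hippocampus, at 4.57, lies farthest from 0.

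Epha4 in the hippocampus had the smallest limma p of the set in KO against WT. It stood at 1518, 858 and 234 normalized reads in KO, from 1685, 1121 and 329 reads, against 0, 18.2 and 76.0 in WT, from 0, 46 and 114 reads. All 3 KO libraries lay above all 3 WT libraries, which held for 5.61% of the genes tested there. The log2 difference was 4.57 (SE 1.58), with an unadjusted p of 0.00488 and an adjusted p of 0.698 in limma. EdgeR gave 4.81 (adjusted p = 0.927), and DESeq2 gave 4.92 and a call (adjusted p = 0.0456). With hippocampus WT replicates 2 and 3 averaged the limma difference was 4.84 (adjusted p = 0.998), and it ran from 3.80 to 5.35 when 1 library was left out.

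In the same libraries the astrocyte sum was 87998, 49355 and 77764 CPM in KO and 75835, 74665 and 80245 CPM in WT. The neuron sum (10 genes) was 6.59, 72.6 and 113 CPM in KO and 338, 37.3 and 75.3 CPM in WT. The choroid and ependymal sum (6 genes) was 57.9, 55456 and 8481 CPM in KO and 12323, 1232 and 7083 CPM in WT. The groups overlapped in all 3 sums.

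In the other regions the limma difference lay below 0 and did not pass. The bulb held 473, 685 and 992 normalized reads in KO and 1698, 1982 and 963 in WT, a difference of -1.10 (SE 0.81). Cortex libraries held 241, 390 and 466 in KO and 279, 555 and 2958 in WT, a difference of -1.11 (SE 2.03), and the 2958 is cortex WT replicate 3. Thalamus libraries held 964, 0 and 1198 in KO and 384, 460 and 471 in WT, and the 1198 is thalamus KO replicate 3. The limma difference was -0.97 (SE 2.41), where the median of all tested genes was -1.31. It turned to 1.28 without thalamus KO replicate 2 and was -2.18 without thalamus KO replicate 3. EdgeR gave 0.134 and DESeq2 0.097, both without thalamus WT replicate 1 and thalamus KO replicate 3. The groups overlapped in each of these 3 regions. The test of whether the KO against WT difference itself differed between regions gave Epha4 an unadjusted p of 0.0326 and an adjusted p of 0.939, and limma called 0 of 9 genes of the set and 0% of all genes in it, with 1 of 9 and 4.58% at an unadjusted p under 0.05. Without cortex WT replicate 3 and thalamus KO replicate 3 the unadjusted p was 0.00383 and the adjusted p 0.766.

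Ephb1 in the hippocampus lay on the other side of 0, at -3.67 (SE 1.56, limma, unadjusted p = 0.0214, adjusted p = 0.699). It stood at 7.20, 564 and 0 normalized reads in KO and at 170, 833 and 1326 in WT, and the groups overlapped through KO replicate 2. The 833 and 1326 are WT replicates 2 and 3, the pair that shared 93.4% of detected genes, and the p counts them as separate libraries. Over 12 limma alternatives, the averaged pair among them, the difference ran from -5.48 to -1.88, with a lowest adjusted p of 0.460. In the thalamus the difference was 2.98 (SE 2.18), and in the olfactory bulb it was -1.25 (SE 1.87). Its interaction of region and genotype had an unadjusted p of 0.0807 (adjusted p = 0.939). Averaged over regions limma gave -0.37 (SE 0.91). EdgeR and DESeq2, which left out thalamus WT replicate 1 and thalamus KO replicate 3, gave 2.36 and 2.21. Without that WT library, which held 66.6, the thalamus WT group was at 0 for Ephb1. The sign of the average was thus not settled.

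Epha7, an ephrin-A receptor of the developing cortex, was scarce in KO cortex, with 0, 24.0 and 0.837 normalized reads against 257, 52.9 and 56.7 in WT cortex. All 3 KO libraries were below all 3 WT libraries, as for 2.88% of tested genes, and the difference of -2.75 (SE 1.86) did not pass (limma, adjusted p = 0.996). The bulb had 0, 357 and 0 in KO and 117, 181 and 80.3 in WT, with a difference of -1.96 (SE 1.87). The hippocampus had 0, 0 and 0.711 in KO and 0, 105 and 26.0 in WT, and the thalamus 0, 750 and 0 in KO and 0, 130 and 0 in WT, neither enough to be tested. Its average over the regions was -1.41 (SE 0.82, limma, unadjusted p = 0.0905, adjusted p = 0.971).

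Ephb2, the ephrin-B receptor best known at excitatory synapses, was above 0 in 3 libraries. It had 667 normalized reads (775 reads) in olfactory bulb KO replicate 1, 49.4 in olfactory bulb WT replicate 2 and 3.06 in hippocampus KO replicate 2, and 0 in the other 21 libraries.

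Of the ligands, Efnb3 in the thalamus had the smallest limma p in KO against WT. Efnb3 encodes ephrin-B3, known in the mouse spinal cord as a midline barrier to corticospinal axons. It stood at 0, 2.60 and 0 normalized reads in KO thalamus and at 133, 13.2 and 323 in WT thalamus. By these values all KO libraries were below all WT libraries, as for 9.97% of tested genes there. The 0 in thalamus KO replicate 3 allows up to 29.7 normalized reads, so its place below the 13.2 was not resolved. The difference was -3.26 (SE 1.72, limma, unadjusted p = 0.0576, adjusted p = 0.859), while the median of all tested genes was -1.31 in the thalamus. Without thalamus KO replicate 3 these were -3.20 for Efnb3 and -0.18 for all genes. Cortex libraries held 4.09, 288 and 169 in KO and 1.2, 89.9 and 3056 in WT, and the -0.73 there turned to 1.44 without cortex WT replicate 3, which holds the 3056 from 808 reads, and to 0.61 without cortex KO replicate 1. The bulb held at most 91.8 and the hippocampus at most 105.

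Efna5 and Efnb2, the ligands that were highest in the bulb, did not pass between genotypes within it. Efna5 had a difference of 0.24 (SE 0.80) and Efnb2 of -0.82 (SE 0.94), with an adjusted p of 1.00 for both in limma. Efnb2 in the hippocampus gave -1.94 (SE 1.70, adjusted p = 0.869). In the average over regions Efnb2 had 0.43 (SE 0.89, limma, adjusted p = 0.996), and DESeq2 called it higher in KO (adjusted p = 0.00434), as it did 428 genes in all where limma called 0. Without thalamus KO replicate 3, which limma used and DESeq2 did not, the limma value was -0.07.

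Efna2, a ligand of the ephrin-A class that guides retinal axons, reached at most 240 normalized reads. Cortex libraries had 0, 240 and 0 in KO and 0, 18.8 and 0 in WT. The bulb had 0, 31.4 and 76.6 in KO and 0 in all WT libraries, the hippocampus 43.2, 0 and 44.1 in KO and 0, 33.9 and 82.0 in WT, and the thalamus 202, 0 and 0 in KO and 31.8, 0 and 0 in WT. Groups overlapped in all 4 regions. Its average was 0.84 (SE 0.69, limma, adjusted p = 0.996), and DESeq2 gave 11.7 and called it among those 428 (adjusted p = 5.25e-05). The bulb WT group was at 0 throughout. DESeq2 left out thalamus WT replicate 1, which held the 31.8, so the thalamus WT group was at 0 in that fit too. EdgeR gave an adjusted p of 0.388. Efnb1, the X-linked ephrin-B ligand, had 0, 660 and 10.7 in KO bulb and 7.61, 24.3 and 19.2 in WT bulb, and the difference of 0.99 turned to -0.86 without KO replicate 2. Outside the bulb Efnb1 was 0 in all 9 WT libraries and reached 32.7 normalized reads in KO.

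The 40 listed genes of Eph and ephrin signalling (adaptors, kinases and other partners) had no call in any comparison. In KO against WT, 22 of 38 tested genes lay above 0 in the olfactory bulb (median 0.15, all genes -0.04), 12 of 34 in the hippocampus (-0.26, all genes -0.16), 21 of 34 in the cortex (0.18, all genes 0.49) and 8 of 32 in the thalamus (-1.69, all genes -1.31). Of all tested genes 48.4%, 44.8%, 60.8% and 25.1% lay above 0, in the same order of regions. Of the described genes 3 of 8, 2 of 5, 2 of 6 and 2 of 4 did. Among the signalling genes 2, 1, 0 and 0 had an unadjusted p under 0.05, in that order of regions. Rgs3, which binds the tail of ephrin-B ligands and damps G-protein signalling, averaged 791 ± 228 normalized reads in KO bulb and 104 ± 99.7 in WT bulb (SD, n = 3 each), a difference of 3.61 (SE 1.48, limma, adjusted p = 1.00). Anks1, an adaptor of EphA receptors, was 491 ± 398 in KO bulb and 24.9 ± 37.4 in WT bulb, with 4.06 (SE 1.83). Cdk5, a kinase acting downstream of EphA4, gave -2.95 (SE 1.58) there.

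Anks1b, the paralog of Anks1, lay lower in KO in the hippocampus at -3.73 (SE 1.74) and in the cortex at -3.77 (SE 2.18), with adjusted p of 0.761 and 0.996 in limma. It held 25.6 ± 42.8 normalized reads in KO hippocampus and 544 ± 583 in WT hippocampus (SD, n = 3 each), and averaged over the regions it gave -1.97 (SE 0.87, adjusted p = 0.971). Next in the hippocampus came Chn1, which acts downstream of EphA4, at -2.69 and the Src-family kinase Yes1 at -1.23. In the cortex they were Sdcbp, a PDZ protein that binds ephrin-B tails, at 2.51 (SE 1.52) and the adaptor Crk at 2.43 (SE 1.79). Both had an adjusted p of 0.996 in limma. The lowest Sdcbp value in WT cortex, 22.7 normalized reads, was that of cortex WT replicate 3, a library that stood apart. Thalamus values were -4.58 (SE 2.34) for the kinase Pak1, -4.16 (SE 2.35) for the kinase Src and 2.68 (SE 1.62) for Sdcbp. Each had an adjusted p of 0.859 in limma, and the median of all tested genes there was -1.31. The highest Sdcbp value in KO thalamus, 40281 normalized reads, was that of thalamus KO replicate 3, which also stood apart. Averaged over the regions Sdcbp gave 1.36 (SE 0.67) and Pak1 -1.71 (SE 0.91), both at an adjusted p of 0.971 in limma.

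Across regions, the signalling genes with the smallest p over both genotypes were Tiam1, Vav2 and then Rgs3, all highest in the olfactory bulb. Tiam1 averaged 532 ± 97.2 normalized reads in KO bulb and 339 ± 322 in WT bulb, against 136 ± 229 in KO hippocampus and 2.06 ± 3.02 in WT hippocampus (SD, n = 3 each). The range between regions was 4.07 for Tiam1 (limma, adjusted p = 0.171), 2.32 for Vav2 (0.190) and 3.66 for Rgs3 (0.464). The median range over the 40 was 1.85, against 1.64 over all tested genes, and 3 of 40 had an unadjusted p under 0.05, where 10.3% of all tested genes did. Of the other family genes 4 were tested across regions and none passed, with Ephb3 at a range of 2.65, highest in the hippocampus (adjusted p = 0.731).

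The genes most like Epha4 over the 24 libraries, among 8981 searched, were Slc35f1 (Pearson r = 0.65, Spearman rho = 0.71), Dennd2a (0.64 and 0.59) and Sipa1l2 (0.64 and 0.64). Those most like Epha5 were Smarcc1 (0.86 and 0.49), Gapvd1 (0.85 and 0.49) and Zkscan1 (0.84 and 0.77). These are descriptions of log2(normalized reads + 10) over libraries that differ in depth and in detected genes. Without cortex WT replicate 3 and thalamus KO replicate 3 the r values were 0.70, 0.76 and 0.72 for Epha4 and 0.69, 0.68 and 0.63 for Epha5.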

How the data were processed

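RNA of sorted mouse astrocytes was read as 24 libraries made from 10 ng of total RNA with a kit whose described protocol has no molecular identifiers, per the labels' protocols. STAR 2.5.0a and DESeq2 1.20.0 under R 3.5.2, with FastQC 0.10.1 and MultiQC 0.9 and the build mm10, are listed in the submitters' processing notes. The counting tool, its annotation and strand setting are not given in the sources used here. The deposited values are a normalized signal, not raw counts: in each column the values were whole multiples (within 0.001) of one step, so the authors' values are reads divided by a size factor per library. Reads were recovered from these steps for 100% of values, and 22 of 24 columns entered the count tests. Thalamus WT replicate 1 and thalamus KO replicate 3 were left out by name, although the first, with 8817 detected genes, did not stand apart. Cortex WT replicate 3 was kept. In the thalamus and in the average over regions, edgeR and DESeq2 thus used fewer libraries than limma and are not a check on the same data. Of 24421 entries, 27 named like dates were left out (at most 0.255% of reads), and Rn45s, a ribosomal RNA gene, took 6.52% to 12.7% of reads.

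The planned edgeR test was replaced by limma 3.58.1 (trend and robust, R 4.3.3) on log2(value + 10), because the values were normalized. Genes needed 10 normalized reads or more in 3 or more libraries, p-values were adjusted by Benjamini-Hochberg over all tested genes, and calls had an adjusted p under 0.05. Samples were grouped by tissue and genotype as labelled. The genotypes were compared region by region and as an average over regions, and regions were compared within each genotype and over both. The scripts were tested on simulated data. Alternatives were other pseudocounts, scalings and filters, left-out libraries, a replicate block, 1 fit over all libraries, and edgeR 4.0.16 and DESeq2 1.42.0 on recovered reads. For single values, 3 libraries against 3 allow no exact permutation p below 0.1. The 10 genes of the set were named with Nfix and the 4 other family genes of highest mean. Values were not printed for every gene of the set in every comparison. Among those not given above, Epha5 gave 2.37 in KO against WT in the cortex and 0.68 in the average. Efna5 gave -1.02 and -0.52 there, and Efnb1 gave 0.71 in the average. None of these passed in limma. The 3 signalling genes of smallest p were named for KO against WT and for the regions over both genotypes. For the interaction and for the regions within 1 genotype such genes were not listed. Also named were the 3 genes most correlated with each of Epha4 and Epha5, the 2 members with the highest mean of normalized reads. That mean was not set per length. The correlated genes were searched among genes with a mean of at least 50 and above 0 in at least 12 libraries. The members and lists were chosen with earlier results of these data known.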

Additional observations from a re-analysis of the deposited data

How the results depend on the processing

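Of 524 limma alternatives over 32 single log2 differences, 492 kept the direction, 32 reversed it (25 by leaving out 1 library) and none moved a value across the threshold. The count tools are not among the 524: DESeq2 called Epha4 in the hippocampus and Efna2 and Efnb2 in the average, the Ephb1 average was 2.36 in edgeR and 2.21 in DESeq2, and Epha4 in the thalamus was 0.134 in edgeR and 0.097 in DESeq2. The genes called in KO against WT went from 0 to 1 in the olfactory bulb with 1 fit over 24 libraries and to 58 with DESeq2. In the hippocampus 1 became 0 with a pseudocount of 1, upper-quartile scaling, no filter, 1 fit over 24 libraries or edgeR, 3 with a pseudocount of 100 or the replicate block, and 120 with DESeq2, which also called 1 gene of the set. The cortex went from 0 to 6 with edgeR and 24 with DESeq2, the thalamus from 0 to 38 with DESeq2, and the average from 0 to 999 with DESeq2, 2 of them of the set. The interaction went from 0 to 9 with no filter and 1 without cortex WT replicate 3 and thalamus KO replicate 3. Across WT regions 28 became 4 with upper-quartile scaling, 140 (1 of the set) without cortex WT replicate 3 and 18 with the hippocampus pair averaged. Across KO regions 6 became 2 with a pseudocount of 1, 1 with TMM, 0 with no filter and 71 without thalamus KO replicate 3. Over both genotypes 178 became 367 without those 2 libraries, and the 2 genes of the set became 1 with a pseudocount of 100 or no filter, Efna5 in both. The cause was not tested.

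Leaving out 1 library at a time gave 0 to 2 called genes in the olfactory bulb, 1 to 7 in the hippocampus, 0 to 1 in the thalamus, 14 to 140 across WT regions (0 to 1 of the set), 0 to 71 across KO regions, and 1 to 2 of the set over both genotypes. Log2 differences then ran in the olfactory bulb from -0.40 to 0.44 (Epha5), -2.66 to 0.49 (Ephb1), -0.20 to 0.94 (Efna5), -0.86 to 2.18 (Efnb1), -1.98 to 0.039 (Efnb2) and -0.55 to 1.13 (Efnb3). They ran in the hippocampus from -0.059 to 0.68 (Epha5) and -1.05 to 0.64 (Efna2), and in the cortex from -0.17 to 0.98 (Ephb1), -3.11 to 0.96 (Efna5) and -2.61 to 1.44 (Efnb3). In the thalamus they ran from -2.18 to 1.28 (Epha4) and -1.57 to 1.80 (Epha5), and in the average from -0.83 to 0.12 (Ephb1) and -0.069 to 0.89 (Efnb2). Other reversals were Efnb3 in the olfactory bulb at -0.19 (pseudocount of 1), Efna2 in the hippocampus at 0.23 (pair averaged), Ephb1 in the cortex at -1.48 (upper-quartile), Efna5 and Efnb3 in the cortex at 0.96 and 1.44 without cortex WT replicate 3, and the averages of Ephb1 and Efnb2 at 0.033 and -0.069 without both doubted libraries.

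Same-number correlations of KO with WT libraries of 1 region ran from -0.069 to 0.073, and 0 of 12 passed 0.1. Different-number correlations of KO with WT libraries of 1 region ran from -0.084 to 0.086, a range that covers the same-number values. Of 24 libraries, 11 correlated best with their own number among the 3 libraries of the other genotype in their region. With 3 libraries in each group, these values do not settle whether the numbers pair KO with WT. Same-number libraries of different regions and 1 genotype, which could share a mouse, had correlations from -0.052 to 0.107, 1 of 36 over 0.1. With the block the adjusted p across regions (limma F test) was 0.00972 for Efna5 and 0.0264 for Efnb2. The genes called in KO against WT in the hippocampus went from 1 to 3 with it, and no other count of calls moved by over 1.5 times. In the fit across regions over both genotypes, the block gave each combination of genotype and number its own term. For KO against WT within 1 region it used the number alone. Whether such a combination stands for 1 mouse is not stated in the labels. Upper-quartile factors were not run where thalamus KO replicate 3 was included.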
